A study of Rattus norvegicus with 35 samples.

Results

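NM-403, a multi-walled carbon nanotube, was instilled into the lungs of p53-heterozygous rats, and its effect on lung gene expression was compared with that of the vehicle. The members are the 11 arrays of this contrast, 5 from exposed and 6 from vehicle rats, among 35 arrays in the study. They were chosen by their titles, not by any measured value.

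The exposed rats were female Sprague Dawley, 12 weeks old at the first instillation, labelled GMO and described as heterozygous for p53 (p53het below), and had received NM-403 at 0.25 mg per rat by weekly instillation into the trachea over 4 weeks. The labels do not say whether that amount was given each week or in all, and they do not describe the p53 allele. The vehicle rats were of the same sex, strain, age and genotype and had received the vehicle, named Pluronic. Further groups used here were WT rats given NM-403 (6) or vehicle (6), and p53het rats given Mitsui-7 (6), another multi-walled carbon nanotube, at the same labelled amount. In all groups the accessory lobe was taken at day 3, and 1 one-colour array was run per rat.

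Carbon nanotubes that reach the distal airspaces are taken up by macrophages and can cause inflammation, with release of chemokines, recruitment of leukocytes and remodelling of the epithelium and connective tissue. The protein p53 is a transcription factor that halts division or triggers death in cells with damaged DNA, through targets such as the cell cycle inhibitor Cdkn1a. Without a description of the allele, how far p53 function is reduced in these rats is not known here, and 1 strain and sex was used.

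Lung genes were present as the tissue label says: Sftpc, Sftpb, Scgb1a1, Ager and Pecam1 were well above background on all 11 arrays, as were all 14 alveolar type 2, all 13 alveolar type 1, all 19 ciliated and all 22 endothelial markers tested. Across the 11 arrays 68.5% to 73.6% of spots were well above background, and none was saturated. Precision is limited by the number of arrays. The arrays lay on 5 slides, 4 of which held both groups. Bulk lung is a mixture of cells, in which more cells of a type and more RNA per cell cannot be told apart.

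The array of p53het vehicle replicate 6 stood apart. Its values correlated with those of the other 10 arrays at a mean r of 0.959, where the other arrays ranged from 0.974 to 0.981, and 11.8% of genes lay more than 2-fold from the mean of the other vehicle arrays. The vehicle arrays other than this one had between 968 and 2582 such genes, against 2894 on this array. Without it, 786 genes were called in place of 942, and 81 of the 97 named genes called in the full comparison still passed. Those of the 97 whose call was lost without it are pointed out below, and Tlr2 here. For further called genes named below, such as Ccl17, A2m, Hp and Foxa3, the result without this array is not given. Tlr2 rose by 0.50 (limma adjusted p = 0.0491), with limma adjusted p = 0.0532 without this array. It was the only call among 24 Toll-like receptor and inflammasome genes (4.17%, against 3.85% of all genes tested).

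Of 24475 genes tested, 942 differed between p53het NM-403 and p53het vehicle lungs (3.85%), 544 higher (2.22%) and 398 lower (1.63%), by limma with Benjamini-Hochberg adjusted p below 0.05. An unadjusted p below 0.05 was found for 4566 genes (18.7%). A change of at least 2-fold was reached by 171 of the higher and 28 of the lower genes. For 489 genes (2%) the arrays of the groups did not overlap, 296 higher (1.21%) and 193 lower (0.789%) with NM-403. Within the 4 slides holding both groups, each with 1 or 2 arrays a group, 93.5% to 100% of the 942 genes kept their direction. These genes were called on the same arrays, so that agreement was largely fixed by their selection and is no separate support. The median difference over all genes was -0.056 on the log2 scale, and -0.139 with normexp background correction, so small differences are read against it. The share of called genes that were higher, 57.7%, was 79.5% with the array median for scaling (669 higher, 173 lower) and 32.5% with normexp (308 higher, 641 lower). Without a slide term the share was 84.1% (313 higher, 59 lower), and with the fit on the 11 arrays alone it was 82.4% (140 higher, 30 lower). Of the 97 named genes called, 75 passed with normexp correction (offset 50), and 30 of the 94 that the fit on the 11 arrays alone tested passed there. Those 30 were Spp1, Orm1, Ccl7, Cd300ld, Muc4, Gsg1, Saal1, Rgs9, Reg3b, Sun5, Fcrla, Alpk3, Cdc6, Rrm2, Icos, Lcn2, Bpifb1, Col16a1, Cfb, Il1rn, Ccl22, Clec9a, Fcgr3a, Mmp12, Cthrc1, Ccne1, Slc26a4, Il1r2, S100a9 and Chia. Of the called named genes 18 had another probe, which passed in the same direction for 5 and had the opposite sign for 1. Levels below are log2 signal relative to the 75th percentile of the array, in the order of the replicate numbers, and are not comparable between genes.

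**Figure D1:**
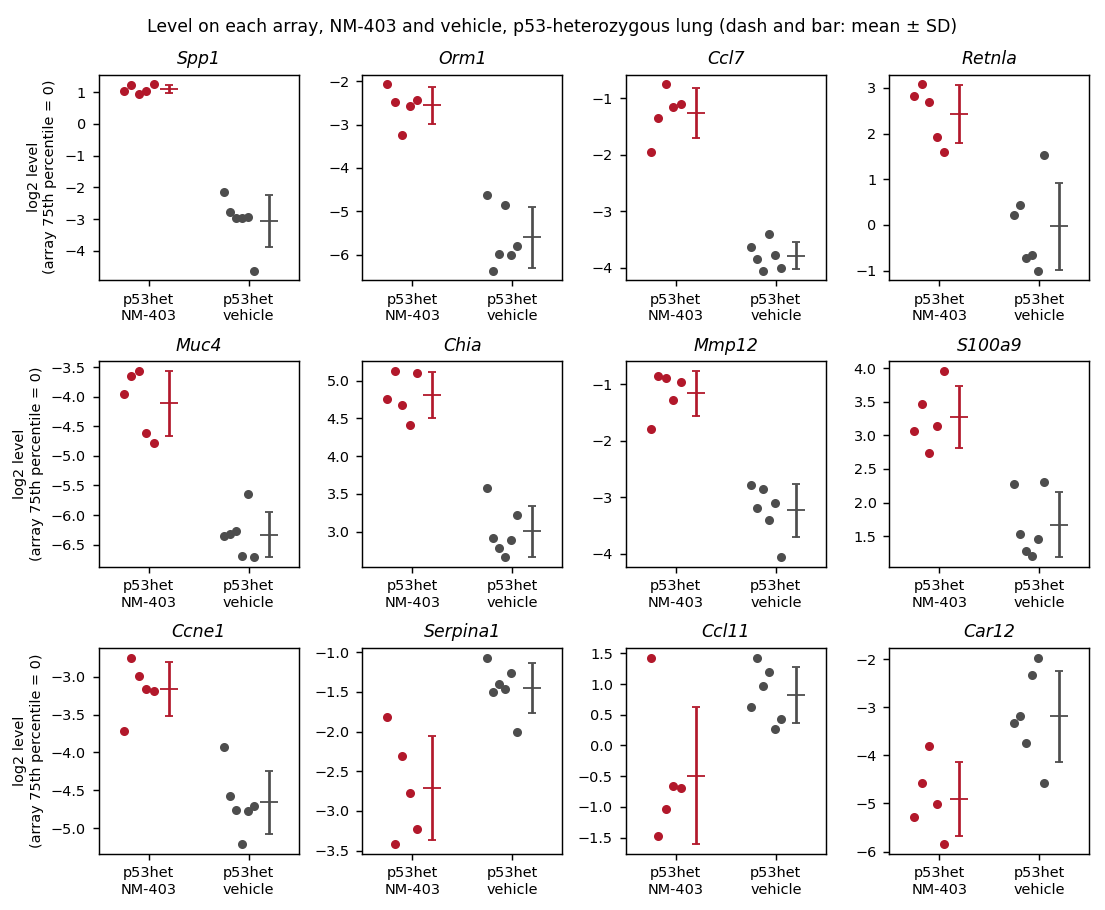
Level (log2 signal, array 75th percentile at 0) of 12 genes on each array, with NM-403 left of vehicle, 5 and 6 p53-heterozygous rats. The dash and bar beside the points are the mean ± SD. The groups are separate for Spp1, Orm1, Ccl7, Retnla, Muc4, Chia, Mmp12, S100a9 and Ccne1, and overlap for Serpina1, Ccl11 and Car12.

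Of the matrix genes, Spp1 had the largest rise. It encodes osteopontin, a secreted glycoprotein that macrophages make in inflamed and fibrotic lung. Its level was 1.03, 1.21, 0.95, 1.05 and 1.26 in p53het NM-403 lungs, against -2.13, -2.76, -2.96, -2.95, -2.92 and -4.62 in p53het vehicle lungs. The NM-403 arrays lay close together and above every vehicle array; vehicle replicate 6 was the lowest. The difference was 4.16 ± 0.33 on the log2 scale (SE), a 17.9-fold rise (limma adjusted p = 2.39e-08), and 3.77 without vehicle replicate 6. Mmp12, the macrophage elastase, had -1.80, -0.86, -0.89, -1.28 and -0.95 in NM-403 lungs, against -2.78, -3.19, -2.85, -3.40, -3.11 and -4.07 in vehicle lungs. The groups did not overlap, and the rise was 4.30-fold (2.10 ± 0.29, limma adjusted p = 6.92e-05). Of 33 matrix remodelling and matricellular genes, 4 rose, namely Spp1, Tnn, Mmp12 and Cthrc1 (1.91-fold), and Loxl4, a lysyl oxidase of matrix crosslinking, fell by 0.43. Another Loxl4 probe had -0.06 and did not pass (limma adjusted p = 0.9). Tnn, tenascin-N, rose by 2.40 ± 0.42, but on NM-403 replicate 1 it was -7.05, among the vehicle arrays (-7.64 to -6.24), while the other 4 exposed arrays ranged from -4.33 to -3.37. With normexp the difference of Tnn was 0.82. Mmp7, a matrix metalloproteinase, had a difference of 1.20 and did not pass (limma adjusted p = 0.388). Among 19 collagens Col16a1 rose 1.52-fold and Col12a1 fell by 0.40, the last with limma adjusted p = 0.0776 without vehicle replicate 6. The median over the matrix list was 0.04, against -0.056 over all genes.

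Acute phase proteins are plasma proteins made in inflammation, mostly by liver and in part by lung epithelium. Orm1, alpha-1-acid glycoprotein, was -2.06, -2.47, -3.23, -2.56 and -2.44 in NM-403 lungs, against -4.62, -6.37, -5.98, -4.85, -6.00 and -5.80 in vehicle lungs. All exposed arrays were higher, by 7.99-fold (3.00 ± 0.47, limma adjusted p = 0.000286). Lcn2, lipocalin 2, which withholds iron from bacteria, rose 2.96-fold (1.56 ± 0.22), with NM-403 replicate 1 at 4.37, within the vehicle arrays. Saal1, which is named after serum amyloid A but is not in the acute phase list counted here, rose 4.56-fold with no overlap. Hpx, the haem carrier hemopexin, rose 2.27-fold. In all, 8 of 17 acute phase genes rose, among them Hp, haptoglobin, at 0.72 and A2m, alpha-2-macroglobulin, at 0.92, and the median over the list was 0.47. Without vehicle replicate 6 there were 6, with the fit on the 11 arrays alone 3, and with normexp 6 with a median of 0.13, where Orm1 had 1.59 and Hpx 0.59. Serpina1, the inhibitor of neutrophil elastase, went the other way, with a fall of 1.25 ± 0.25 (limma adjusted p = 0.00343); levels were -1.82, -3.42, -2.31, -2.78 and -3.23 in NM-403 lungs and -1.07, -1.50, -1.40, -1.47, -1.27 and -2.01 in vehicle lungs. Its ranges overlapped only between NM-403 replicate 1 and vehicle replicate 6. Complement genes rose for 7 of 25 members with none lower (median 0.35). C9, a component of the membrane attack complex, rose 2.25-fold, Cfb, a protease of the alternative pathway, 1.71-fold (limma adjusted p = 1.95e-05), and C3, the central component, 1.78-fold. C3 stood at 3.45 on NM-403 replicate 1 and at 3.45 on vehicle replicate 1, the highest vehicle array. Without vehicle replicate 6 there were 6 complement genes higher, and with the fit on the 11 arrays alone 1, Cfb (limma adjusted p = 0.0446).

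Chemokines draw leukocytes into tissue. Of 32 ligands, 5 rose, namely Ccl7, Ccl2, Ccl12, Ccl22 and Ccl17, and 2 fell, Ccl11 and Ccl21; the median was 0.20. Ccl7, a monocyte attractant, had -1.95, -1.35, -0.75, -1.15 and -1.10 in NM-403 lungs and -3.63, -3.85, -4.05, -3.41, -3.78 and -4.00 in vehicle lungs. Every exposed array was higher, by 5.68-fold (2.51 ± 0.33, limma adjusted p = 4.66e-05). Ccl2, the main monocyte attractant, rose 3.89-fold (1.96 ± 0.31), and vehicle replicate 1 at -0.51 almost reached NM-403 replicate 1 at -0.48. Ccl22, a ligand of the receptor Ccr4 made by dendritic cells and macrophages, rose 1.96-fold (0.97 ± 0.15), and its other probes had differences of 2.02 and 1.85 and passed (limma adjusted p = 2.33e-06 and 4.92e-06). Ccl12 rose by 1.45 ± 0.41 with overlapping ranges, and its call was lost without vehicle replicate 6 (limma adjusted p = 0.0535) and with normexp (0.78, limma adjusted p = 0.0738), where Ccl7 had 1.92. Ccl11, eotaxin, was 1.42, -1.48, -1.04, -0.66 and -0.70 in NM-403 lungs, against 0.63, 1.43, 0.97, 1.19, 0.26 and 0.43 in vehicle lungs. All exposed arrays except replicate 1 were lower; the difference was -1.31 ± 0.37 (limma adjusted p = 0.0445) and did not pass without vehicle replicate 6 (limma adjusted p = 0.0786). Ccl21, which attracts T cells and dendritic cells to lymphatic vessels, fell by 0.43. None of 15 chemokine receptors passed, by limma; Cxcr2, of neutrophils, had 0.96 (limma adjusted p = 0.0563). Of 21 cytokines and antagonists, Il1rn, the interleukin-1 receptor antagonist, rose 2.06-fold with no overlap (1.04 ± 0.14), and Il24 rose 3.54-fold, but had 0.32 with normexp (limma adjusted p = 0.21); Il33, an alarmin of epithelium and endothelium, fell by 0.35 and Il1a by 0.50. Interferon-stimulated genes gave no call among 32 members (median -0.04). At the 3.85% called over all genes tested, lists as short as these and the chemokine receptors can have no call. Their lack of calls does not show that they were unchanged.

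Calls among leukocyte markers were read beside the 3.85% called over all genes tested. Of 16 neutrophil genes 2 passed, both higher: Il1r2, the decoy receptor of interleukin 1, rose 3.38-fold, and S100a9, a calprotectin subunit, 2.88-fold. S100a9 was 3.06, 3.47, 2.73, 3.14 and 3.96 in NM-403 lungs, against 2.27, 1.53, 1.28, 1.20, 1.45 and 2.30 in vehicle lungs, without overlap. Differences over the 16 neutrophil genes ran from -0.56 to 1.76, with 10 above 0. For 1 of the 16 every NM-403 array was below every vehicle array. The mean log2 level over the neutrophil list ran from -4.15 to -3.64 in NM-403 lungs and from -4.36 to -4.15 in vehicle lungs. Of its 16 members 10 were above background on all 11 arrays. Of 20 macrophage and monocyte markers, Itgam, the integrin chain of CD11b, rose 1.78-fold and Fcgr3a, an IgG receptor, fell by 0.70; the list mean ranged from -2.41 to -1.85 in NM-403 lungs and from -2.38 to -2.11 in vehicle lungs, so the groups overlapped. Their part in the rise of Spp1, Mmp12 and the chemokines was not tested. Cd300ld, a myeloid receptor, rose 5.46-fold (2.45 ± 0.61; 1.47 with normexp). Of 44 lysosomal and lipid-handling genes 4 rose, Pla2g7, Ctsk, Trem2 and Scarb1, and the last 3 lost their call without vehicle replicate 6. Dendritic cell genes rose for 2 of 12: Clec9a 1.86-fold, a receptor of the cross-presenting type, and Ccl22. Another Clec9a probe had 0.33 and did not pass (limma adjusted p = 0.758). With the mean of a gene's probes 1 dendritic cell gene passed. Antigen presentation genes rose for 4 of 12, Cd86 1.82-fold, RT1-DMb 1.46-fold, RT1-Db1 1.43-fold and Cd74 1.25-fold (median 0.37), where the call of Cd74 was lost without vehicle replicate 6 (limma adjusted p = 0.11); Cd86 is a costimulatory ligand and Cd74 the invariant chain, and with normexp Cd86 had 0.03 (limma adjusted p = 0.843). Of 17 T cell genes only Icos, a costimulatory receptor, passed (1.76-fold). Plasma cell genes rose for 5 of 13, Tnfrsf17, Mzb1, Derl3, Irf4 and Fkbp11, with a median of 0.41. Their list mean ranged from -2.66 to -2.00 in NM-403 lungs and from -2.89 to -2.51 in vehicle lungs. NM-403 replicate 4, at -2.66, lay within the vehicle range. Tnfrsf17, the BCMA receptor of plasma cells, rose 2.39-fold, and it and Mzb1 lost their call without vehicle replicate 6 and with normexp (0.31 and 0.38). Other probes for Derl3 had differences of 0.29, 0.52 and -0.16 and did not pass. None of 7 eosinophil, 12 mast cell or 15 natural killer markers passed. At the share over all genes, lists this short can have no call, so this does not show that the cell types were unchanged. With the fit on the 11 arrays alone, no plasma cell and no antigen presentation gene passed.

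Of mucous cell genes 6 of 15 rose, and of type 2 genes 2 of 22. Chia, acidic chitinase, which degrades chitin, was 4.75, 5.13, 4.68, 4.41 and 5.10 in NM-403 lungs, against 3.58, 2.92, 2.78, 2.66, 2.89 and 3.22 in vehicle lungs. The groups were separate; Chia rose 3.34-fold (1.74 ± 0.15, limma adjusted p = 3.66e-08). Retnla, a secreted marker of alternatively activated macrophages, rose 5.56-fold (2.48 ± 0.37), with NM-403 arrays from 1.59 to 3.09 and the highest vehicle array at 1.54. Chia and Retnla were the 2 members of 22 in the type 2 list that rose, and the median of that list was -0.09; Il33 fell. None of the mucous cell genes fell (median 0.44, and 0.01 with normexp, where 4 passed). Bpifb1, a secreted airway protein, had 0.87, 2.00, 1.49, 1.16 and 1.68 in NM-403 lungs, against -0.15, -0.38, -0.80, -1.06, -0.93 and -0.94 in vehicle lungs. It rose 4.25-fold (2.09 ± 0.21, limma adjusted p = 8.51e-07). Muc4, a membrane-bound mucin, rose 5.13-fold and Slc26a4, the anion exchanger pendrin, 2.99-fold, both without overlap. Clca1, of mucous cells, rose 4.25-fold, and 4 of 6 vehicle arrays had it above background; with normexp Clca1 had 0.63 (limma adjusted p = 0.181) and Muc4 0.79. Foxa3, a transcription factor of goblet cells, rose by 1.38, and Muc1, also an alveolar type 2 marker, 1.54-fold. Muc5b, a gel-forming mucin, had 0.87 and did not pass, with 1 array of each group above background. Reg3b, an antibacterial lectin, was above background on all 5 NM-403 arrays and no vehicle array, and rose at least 2.49-fold (limma adjusted p = 0.0144), but its difference was 0.08 with normexp (limma adjusted p = 0.738). Such a bound sets the mean of the higher group against the vehicle arrays, each raised to its lowest signal well above background.

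**Figure D2:**
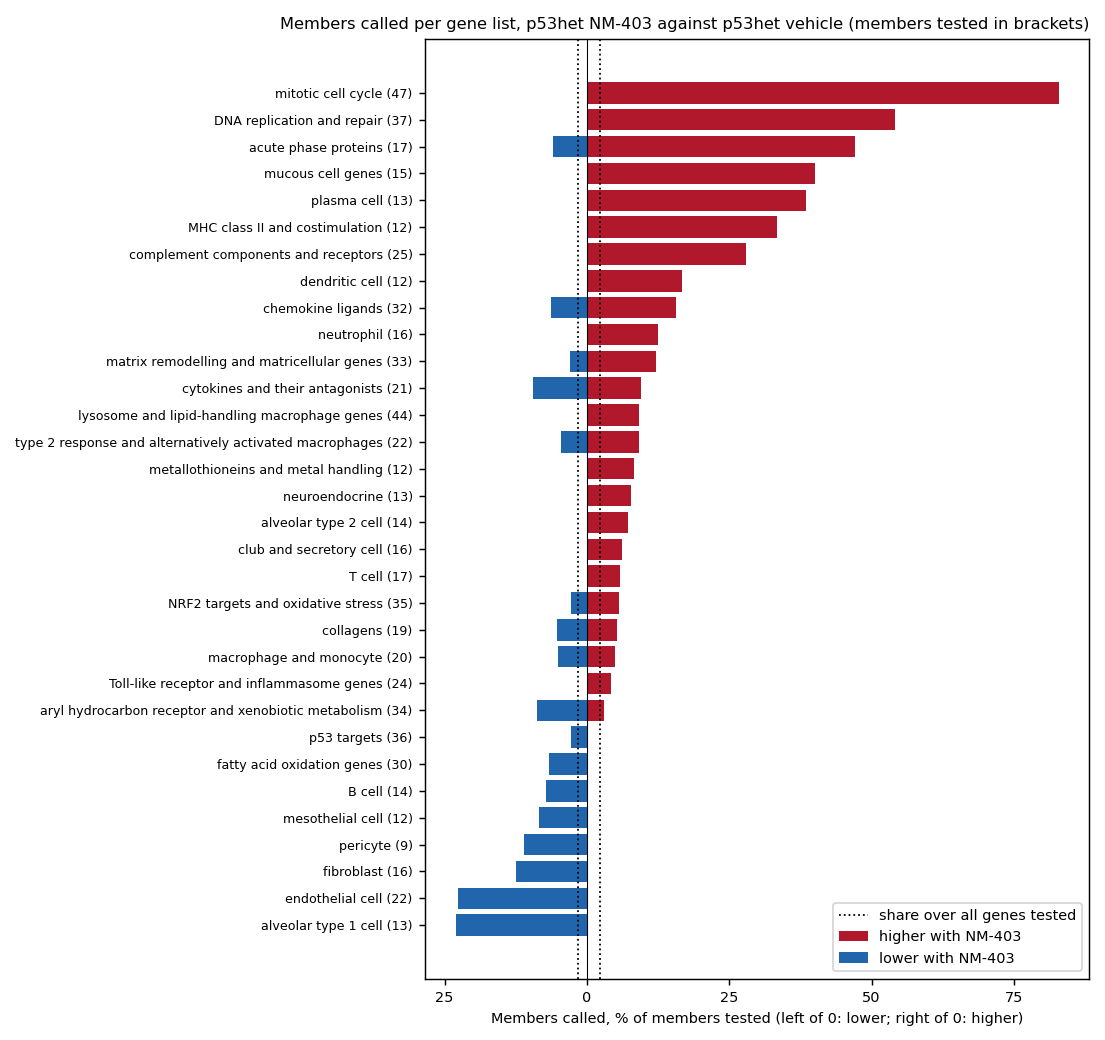
Share of tested members called per gene list (percent), higher with NM-403 to the right and lower to the left, for lists with at least 1 member called; dotted lines mark the shares over all genes tested, 2.22% and 1.63%. Mitotic genes had 39 of 47 members higher, and alveolar type 1 and endothelial markers had 3 of 13 and 5 of 22 lower.

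Cell division genes had the largest share of members called among the lists. Of 47 mitotic genes 39 rose and none fell; the median difference was 0.94, against -0.056 over all genes tested. The list mean was -3.50, -3.16, -2.83, -3.19 and -3.32 in NM-403 lungs, against -3.92, -4.00, -4.01, -4.33, -4.04 and -4.29 in vehicle lungs. The exposed arrays were all above the vehicle arrays, and within the 4 slides that held both groups the list median ranged from 0.64 to 1.28. Without vehicle replicate 6 the count was again 39, with a median of 0.90. With the fit on the 11 arrays alone 18 passed, with a median of 0.96, and with normexp correction 28 passed, with a median of 0.49. Ccne1, cyclin E1, which drives entry into S phase, was -3.72, -2.75, -2.99, -3.16 and -3.19 in NM-403 lungs, against -3.93, -4.57, -4.76, -5.21, -4.77 and -4.71 in vehicle lungs. It rose 2.77-fold (1.47 ± 0.16, limma adjusted p = 2.1e-06) with no overlap. Ccna2, cyclin A2, rose by 1.29, Ccnb1, cyclin B1, by 1.12, Cdk1, their kinase partner, by 1.04, and Plk1, a mitotic kinase, by 1.08. Melk, a kinase of dividing cells, rose 2.78-fold, and NM-403 replicate 1 at -5.66 lay within the vehicle range (-6.78 to -5.33). Pbk, another mitotic kinase, rose 2.86-fold; 2 of 6 vehicle arrays had it above background, and with normexp Pbk had 0.11 (limma adjusted p = 0.53), Melk 0.34 and Ccne1 0.80. Cenpe, a motor protein of the kinetochore, was above background on 4 of 5 NM-403 and none of the 6 vehicle arrays and rose at least 2.06-fold (limma adjusted p = 0.0102), but had a difference of -0.01 with normexp correction. Mki67, a proliferation antigen, rose by 0.78, Top2a, a topoisomerase, by 1.03, and Foxm1, a factor that activates mitotic genes, by 0.57. Aurkb (0.80), Kif2c (0.72), Cenpf (0.45), Ccne2 (0.38), Aurka (0.34), Cenpa (0.28), Kif23 (0.08) and Kif4a (-0.08) did not pass.

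DNA replication and repair genes rose for 20 of 37 members, with none lower and a median of 0.44. Without vehicle replicate 6 there were 19, with the fit on the 11 arrays alone 10, and with normexp 13 with a median of 0.13. Cdc6, which loads the replicative helicase, rose 2.62-fold, and 3 of 6 vehicle arrays had it above background; with normexp it had 0.13 (limma adjusted p = 0.424). Rrm2, a subunit of ribonucleotide reductase, was -0.05, 0.82, 0.59, 0.66 and 0.61 in NM-403 lungs, against -0.09, -0.62, -0.71, -1.23, -0.82 and -0.74 in vehicle lungs. Replicate 1 of the exposed rats was only 0.04 above the highest vehicle array, but the rise was 2.26-fold over all arrays (1.18 ± 0.16, limma adjusted p = 6.68e-05). Helicase subunits Mcm5 (0.97), Mcm6 (0.84), Mcm2 (0.51), Mcm3 (0.49) and Mcm4 (0.44) rose, while Mcm7 (0.15) and Mcm10 (0.27) did not pass. Repair genes Fanca (1.09), Exo1 (0.99) and Brca1 (0.61) rose. Uhrf1, which maintains DNA methylation, was at least 1.99-fold higher (limma adjusted p = 0.0245), as was Fancd2, of the Fanconi pathway, at least 2.02-fold (limma adjusted p = 0.00968), both below background on all vehicle arrays; with normexp each had a difference of -0.03. Pcna, the sliding clamp, had 0.11 and did not pass.

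**Figure D3:**
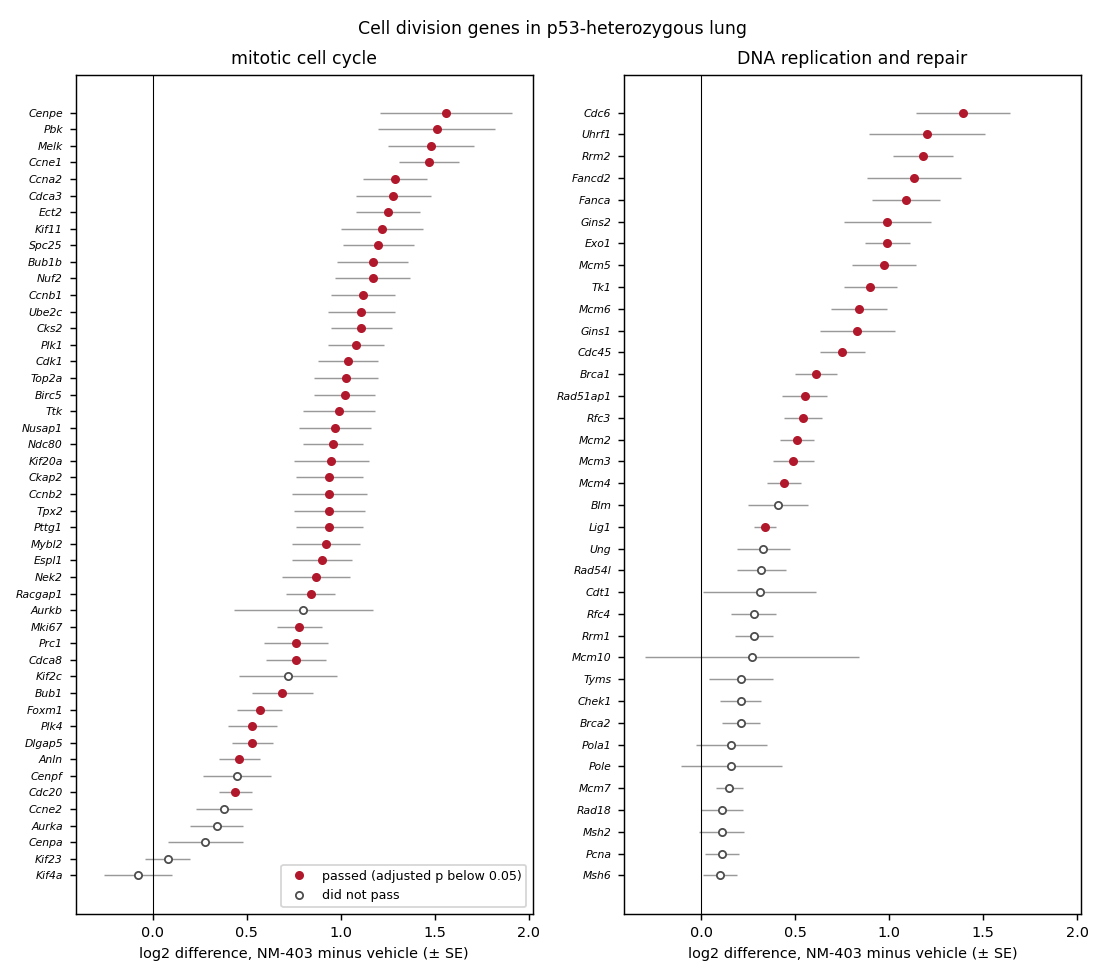
Difference in log2 level, NM-403 minus vehicle, for the 47 mitotic and all but 1 of the 37 DNA replication and repair genes tested in p53-heterozygous lung, with limma's standard error. Filled points passed and open points did not; 39 and 20 of the 47 and 37 genes passed.

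Genes of the late cell cycle are typically controlled through CCAAT boxes and CHR elements (TTTGAA), so the 250 bases before the start of transcription were read for both, on either strand, in the RefSeq promoters of GRCr8. A promoter was found for 39 of the 47 mitotic genes tested. The letters CCAAT or ATTGG were present in 28 of them (71.8%), against 34.3% of all 27457 promoters, and TTTGAA or TTCAAA in 17 (43.6%), against 16% of all. Both were present in 16 (41%), against 5.76% of all. Of the 33 members with a promoter that rose, 24 had CCAAT, 15 had TTTGAA and 14 had both. The promoters of the 4 called members with the largest difference that had a promoter entry show how these letters lie in them: Cenpe (chr2:226310807-226311056, plus strand), Melk (chr5:63335901-63336150, plus strand), Ccne1 (chr1:99927910-99928159, minus strand) and Cdca3 (chr4:159320953-159321202, plus strand). Motif letters are in capitals, 5' to 3' in the direction of the gene, ending at the base before the start.
Cenpe: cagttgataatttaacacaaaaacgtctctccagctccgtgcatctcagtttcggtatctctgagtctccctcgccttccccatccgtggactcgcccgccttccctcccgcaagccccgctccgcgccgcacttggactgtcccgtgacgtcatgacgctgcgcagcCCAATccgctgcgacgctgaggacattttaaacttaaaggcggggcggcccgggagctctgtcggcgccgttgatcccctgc
Melk: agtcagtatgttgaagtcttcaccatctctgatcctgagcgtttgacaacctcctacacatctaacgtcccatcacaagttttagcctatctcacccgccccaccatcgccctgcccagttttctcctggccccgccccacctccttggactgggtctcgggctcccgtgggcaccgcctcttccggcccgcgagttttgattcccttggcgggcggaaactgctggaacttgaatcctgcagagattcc
Ccne1: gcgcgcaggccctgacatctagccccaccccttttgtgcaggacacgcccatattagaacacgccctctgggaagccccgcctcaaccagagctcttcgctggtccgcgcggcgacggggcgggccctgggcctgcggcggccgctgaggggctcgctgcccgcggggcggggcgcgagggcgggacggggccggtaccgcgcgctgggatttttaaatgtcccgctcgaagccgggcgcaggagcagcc
Cdca3: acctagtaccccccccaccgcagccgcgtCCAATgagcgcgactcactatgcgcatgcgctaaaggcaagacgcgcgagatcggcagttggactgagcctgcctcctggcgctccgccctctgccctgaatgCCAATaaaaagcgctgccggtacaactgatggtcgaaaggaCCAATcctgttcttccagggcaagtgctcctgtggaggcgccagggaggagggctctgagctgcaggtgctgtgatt
Cenpe had 1 CCAAT, 82 bases before the start, Cdca3 had 3, at 221, 118 and 77 bases before it, and Melk and Ccne1 had none; none of the 4 had TTTGAA. A match is a match of letters, not a shown binding site.

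Targets of p53 were called at a share near that of all genes tested. Cdkn1a, the cell cycle inhibitor p21, had levels of 0.19, 0.30, -0.04, 0.42 and 0.67 in NM-403 lungs and 0.53, 0.56, 0.22, 0.15, -0.11 and 0.53 in vehicle lungs. The groups overlapped throughout (difference -0.03 ± 0.10, limma adjusted p = 0.898). Mdm2, which ubiquitinates p53, differed by -0.06 ± 0.07 (limma adjusted p = 0.686). Of 36 p53 targets tested, 1 passed (2.78%, against 3.85% of all genes tested), a count that a list this short can have at that share. Gadd45a, a stress-induced inhibitor, was that gene and fell 1.26-fold (-0.33 ± 0.08). Its exposed arrays ranged from -0.92 to -0.66 and its vehicle arrays from -0.61 to -0.39. The list median was -0.03, close to that of all genes.

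Some alveolar type 1 and endothelial markers fell. Of 13 alveolar type 1 markers 3 fell and none rose (median -0.25). Cav1, caveolin 1, which forms plasma membrane invaginations, was 3.70, 3.77, 3.52, 3.74 and 3.71 in NM-403 lungs, against 4.20, 3.90, 4.02, 4.10, 4.05 and 4.44 in vehicle lungs, with no overlap; it fell by 0.45 ± 0.08 (limma adjusted p = 0.00133). Rtkn2 fell by 0.54 and Scnn1g, a sodium channel subunit, by 0.27, and Scnn1g did not pass without vehicle replicate 6 (limma adjusted p = 0.081). Of 22 endothelial markers 5 fell and none rose (median -0.28): Cldn5, a tight junction protein, by 0.52, Ednrb, an endothelin receptor, by 0.49, Ramp2 by 0.35, Kdr, a VEGF receptor, by 0.34, and Esam by 0.26; Kdr did not pass without vehicle replicate 6 (limma adjusted p = 0.0892), nor Ramp2 with normexp (limma adjusted p = 0.0643). Pecam1 had -0.21 and did not pass. Fibroblast genes Dcn and Ogn fell by 0.53 and 0.38, the pericyte gene Cspg4 by 0.52 and the mesothelial gene Upk3b by 0.63, each of which except Cspg4 had no overlap between the groups; Ogn did not pass without vehicle replicate 6 (limma adjusted p = 0.0749) or with normexp (limma adjusted p = 0.0535). With the fit on the 11 arrays alone, none of these markers passed. The alveolar type 2 list had a median of 0.15 and 1 call, Muc1. Smooth muscle, cardiac and ciliated lists gave no call, which lists this short can have at the 3.85% called over all genes tested.

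Of the falls among genes with a symbol that were above background on every vehicle array, several lay outside these lists. Car12, a carbonic anhydrase, fell 3.43-fold (-1.78 ± 0.45; -1.16 with normexp) with overlapping ranges, from -5.85 to -3.80 in NM-403 lungs and from -4.57 to -1.97 in vehicle lungs. Fam107a, a stress-responsive actin regulator, fell 2.89-fold (-1.53 ± 0.37), with exposed replicates 1 and 4 at 0.49 and -0.32, within the vehicle range of -0.65 to 1.51. Ucp3, a mitochondrial carrier, fell 2.78-fold (limma adjusted p = 0.0428), with no overlap, but its call was lost under 13 of 22 alternatives. For Ucp3, replicate 5 of the exposed rats had no value and 4 of the exposed arrays were above background. Of 30 fatty acid oxidation genes, Ucp3 and Eci1, an enoyl-CoA isomerase, fell and none rose, and Eci1 did not pass without vehicle replicate 6 (limma adjusted p = 0.0709). Sun5, Lamc3 and Alpk3 fell by 1.26, 1.01 and 0.98 with no overlap. Lamc3 lost its call under 17 of 23 alternatives, while Sun5 and Alpk3 kept theirs under all that tested them. Another Alpk3 probe had -0.51 and did not pass (limma adjusted p = 0.16). Fcrla, a B cell gene, fell by 1.04 and was the only one of 14 B cell genes to pass. Acoxl, Tmem169 and Sh3rf2 fell by 1.17, 1.09 and 1.08 with overlap, and Sh3rf2 lost its call without vehicle replicate 6 (limma adjusted p = 0.0609).

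The other large rises included Upk3bl1 (5.12-fold), Gsg1 (5.07-fold), Scn10a (4.69-fold), a sodium channel of sensory neurons, and Rgs9 (4.42-fold), with 4, 3, 5 and 1 of 6 vehicle arrays above background. With normexp they had 0.60, 0.56, 0.78 and 0.29, and Gsg1 and Rgs9 did not pass (limma adjusted p = 0.071 and 0.222). Slc7a11, the cystine transporter induced by NRF2, rose 3.84-fold (1.94 ± 0.30), but had 0.47 with normexp (limma adjusted p = 0.0809) and 0.87 on another probe (limma adjusted p = 0.222). Gsta4, a glutathione transferase, fell by 0.34; of 35 NRF2 and oxidative stress genes 2 rose and 1 fell (list median 0.00). Mt3, a metallothionein, rose 3.16-fold, but had 0.33 with normexp (limma adjusted p = 0.382). Of 34 xenobiotic metabolism genes 1 rose, Cyp2c23, and 3 fell, Cyp2d4, Ces1f and Gstm2, by 0.43 to 0.56; Ces1f did not pass without vehicle replicate 6 (limma adjusted p = 0.0806).

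The genotypes were compared through the interaction of genotype and NM-403. No gene passed by limma, and 934 of 24475 (3.82%) had an unadjusted p below 0.05. Of the 942 genes called in p53het lungs, 543 were also called among the 1858 called in WT lungs (7.59% of genes tested, 4.4% higher and 3.19% lower), all in the same direction, which is 57.6% of the p53het and 29.2% of the WT list; the 2 contrasts share no arrays. The sign in WT was the same for 97.2% of the 942 genes, against 67.7% of all genes. Across 24475 genes, which are not independent, the differences correlated at r = 0.55. The mitotic list had a median of 0.94 in p53het lungs and 0.95 in WT lungs, and Spp1 rose by 4.16 in p53het and by 4.10 in WT lungs. Among the 942 genes 93 had an unadjusted interaction p below 0.05. Those genes were selected on the p53het difference, which is part of the interaction, so the selection itself raises this count. Examples that did not pass were Ccl21, with -0.43 in p53het and 0.02 in WT lungs (unadjusted p = 0.00182), Serpina1, with -1.25 and -0.17 (0.00439), and Il1a, with -0.50 and 0.10 (0.00402). Over all genes the smallest unadjusted limma value was 0.000199, for Sept7 (-0.36 in p53het and 0.11 in WT lungs). It was followed among genes with a symbol by Tcam1 (1.06 in p53het and -0.41 in WT), Mt2A (0.22 and 0.79) and F3, tissue factor (0.01 and 0.67). A p that misses the threshold does not show that the genotypes respond alike: the median standard error of the interaction was 0.19 on the log2 scale.

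**Figure D4:**
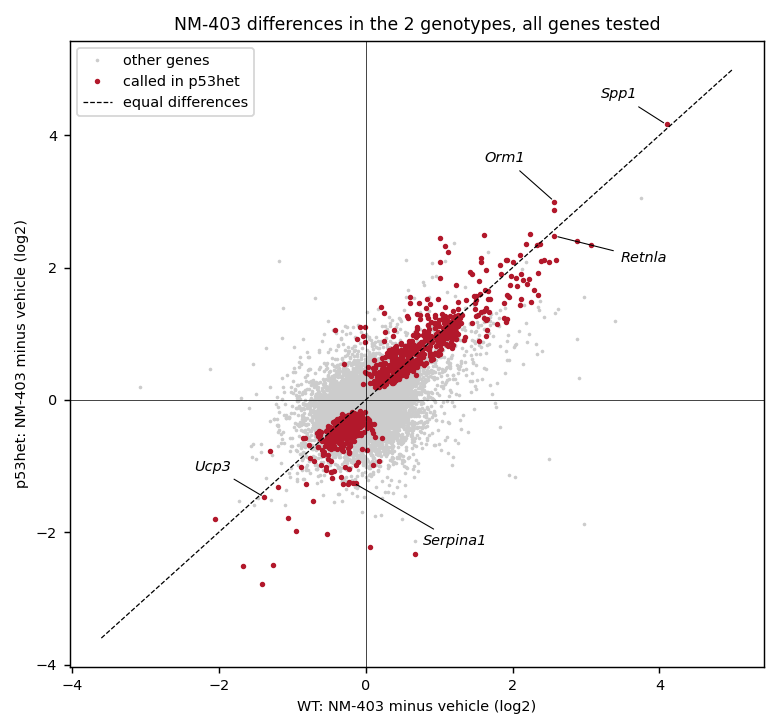
Difference in log2 level, NM-403 minus vehicle, in p53het lungs (y axis) and WT lungs (x axis) for the 24475 genes tested; red points are the 942 called in p53het lungs and the dashed line marks equal differences. Of the 942, 97.2% have the same sign in WT.

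NM-403 and Mitsui-7 were compared in p53het lungs as a contrast of their groups in the model of all 35 arrays. Of 24475 genes, 498 differed (2.03%), 137 higher with NM-403 (0.56%) and 361 lower (1.47%). With only the 11 arrays of these groups 132 passed, 5.3% of them higher, and with array weights 1679, 40.4% higher. Mt3 was 16.9-fold lower with NM-403 (-4.07 ± 0.36, limma adjusted p = 4.36e-08), with means of -5.04 ± 0.71 in NM-403 (SD, n = 5) and -0.97 ± 0.57 in Mitsui-7 lungs (n = 6). Sctr, the secretin receptor, was above background on none of the NM-403 arrays and all 6 Mitsui-7 arrays, at least 8.38-fold lower (limma adjusted p = 6.19e-08). Nppb, a natriuretic peptide, and Trh, thyrotropin-releasing hormone, were above background on no NM-403 array and on 5 and 6 Mitsui-7 arrays, at least 6.53-fold and 6.72-fold lower (limma adjusted p = 7.5e-07 and 2.66e-06). With normexp the differences were -2.97 for Mt3, -0.94 for Sctr, -0.90 for Nppb and -0.80 for Trh, smaller than these bounds for the last 3. Clca1 was 10.2-fold lower, Muc5b, above background on 1 of 5 NM-403 and all 6 Mitsui-7 arrays, had a difference of -3.24 (-1.10 with normexp), and Il24 was lower by 3.14 ± 0.31. Spp1 was lower with NM-403 than with Mitsui-7, by 2.43 ± 0.34 (limma adjusted p = 5.4e-05), as were Mmp12 (by 1.55), Bpifb1 (by 1.24) and Il1rn (by 1.26). Orm1 was 14.2-fold higher with NM-403 (3.83 ± 0.47, limma adjusted p = 9.27e-06), at -2.55 ± 0.42 in NM-403 and -6.33 ± 1.41 in Mitsui-7 lungs. S100a9 was 3.55-fold higher, Cyp2a3, a cytochrome P450, 5.56-fold, and Lpo, lactoperoxidase, 3.36-fold. Levels of Cyp2a3 overlapped between NM-403 (-5.28 to -2.93) and vehicle lungs (-4.76 to -2.96), and were lower in Mitsui-7 lungs (-7.81 to -5.62). Cyp1a1, a target of the aryl hydrocarbon receptor, was at least 5.53-fold higher (limma adjusted p = 0.0269), below background on all 6 Mitsui-7 arrays, but this call was lost under 10 of 22 alternatives, with 0.52 under normexp (limma adjusted p = 0.354). Against vehicle Cyp1a1 did not pass (0.93 ± 0.83, limma adjusted p = 0.596). With normexp Orm1 had 1.79 and Cyp2a3 0.79. With only the arrays of these groups neither Orm1 nor S100a9 passed (limma adjusted p = 0.0648 and 0.088). Mitotic genes gave 2 calls in this contrast and DNA replication and repair genes none, with medians of -0.08 and 0.06. Cdkn1a was lower with NM-403 by 0.73 ± 0.10 (limma adjusted p = 4.44e-05).

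**Figure D5:**
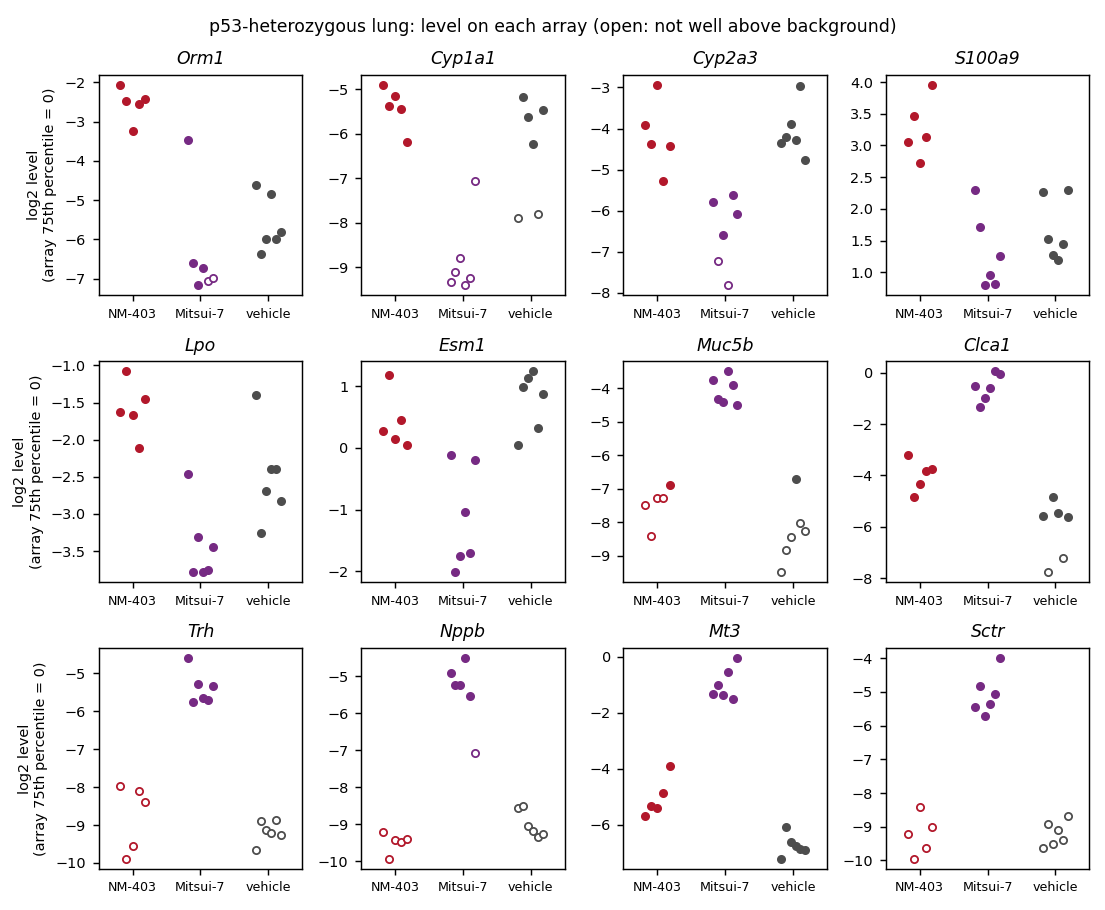
Level (log2 signal, array 75th percentile at 0) on each p53het array for the 6 highest and the 6 lowest differences, NM-403 minus Mitsui-7, among called genes with a symbol, in the order NM-403, Mitsui-7, vehicle; open points are not well above background. Orm1, Cyp1a1, Cyp2a3, S100a9, Lpo and Esm1 are higher with NM-403 than with Mitsui-7, and Muc5b, Clca1, Trh, Nppb, Mt3 and Sctr are lower.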

How the data were processed

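The authors deposited 35 scanner files, 1 array per rat, whose processed signal is a background-corrected intensity on a linear scale, per the file headers; Agilent Feature Extraction is at 12.0.1.1 in the submitters' processing notes. The authors' deposited matrix holds log2 values for 11555 probes, centred on each probe's median, which followed the scanner values at r from 0.994 to 0.999 (column medians -0.083 to 0.069); how its probes were chosen is unknown here.

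Control spots (4259 per array) and outlier flags were left out. Log2 intensity minus the array's 75th percentile was taken, and a gene, by the files' gene name, was represented by its brightest probe. Of 34766 names, 24475 were kept, those with 5 or more arrays well above background and 3 or more values in each group. All 35 arrays entered 1 model with a mean per group and slide as a fixed block (R 4.3.3, limma 3.58.1, version 1.17.8 of data.table, adjusted p below 0.05). Values after ± are SE beside a difference and SD beside a mean. Nothing in the labels beyond 1 array per rat describes how independent the animals are. On simulated data 73.1% of 2-fold changes between p53het NM-403 and vehicle lungs were recovered, with 4 false among 156 calls over 24475 genes. The simulated noise was normal and independent between genes, with no array standing apart and no background floor. The simulation therefore does not show how many of the real calls are false.

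Replicate numbers did not pair the arrays: same-number residuals correlated from -0.57 to 0.19, with 1 of 5 over 0.1. Residuals of arrays sharing a slide had a mean correlation of 0.239 (99 pairs), against -0.0563 for other pairs (411). Members, gene lists (22 pathways, 25 cell types), tests and the naming rule were chosen with earlier results of these data known. The rule took the 12 largest rises and falls with a symbol and all arrays of the higher group above background, up to 4 called members per list, members moving against their list, and Cdkn1a, Mdm2 and Spp1; further list members were named after their values were seen. Values of some genes are not reported here. Promoters are RefSeq's (GRCr8). Alternatives were other scalings, background correction, filters, probe averaging, the authors' values, slide terms, array weights, a replicate block, fewer groups and each replicate left out.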

Additional observations from a re-analysis of the deposited data

Results flagged for a closer look

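Of 198 sets of 5 NM-403 or 6 vehicle arrays tested for a value far from the rest, 19 (9.6%) had one, where chance alone gives about 1 in 20. Values are log2 levels. NM-403 replicate 1 lay apart for Ccl11 at 1.42, Rrm2 at -0.05, Cd86 at -6.37, Tnn at -7.05, Pbk at -6.49 and Melk at -5.66. NM-403 replicate 2 lay apart for Alpk3 at -2.59 and Ogn at 1.25, and NM-403 replicate 3 for Lamc3 at -2.21 and Kdr at 3.59. Vehicle replicate 6 lay apart for Spp1 at -4.62, Tmem169 at -2.89, Alpk3 at -1.85, Cd74 at 3.77 and C9 at -3.63. Vehicle replicate 1 lay apart for C3 at 3.45 and Cfb at 2.9, vehicle replicate 2 for Upk3bl1 at -8.89 and vehicle replicate 4 for Pbk at -9.21.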

How the results depend on the processing

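Of 97 named genes called, 22 passed under every alternative that tested them, 22 or 23 for each. The count of 942 genes was 372 without a slide term, 170 with only the contrast's 11 arrays (22383 genes tested) and 1456 with array weights. Leaving out 1 replicate gave 445 (NM-403 replicate 3) to 1279 genes (NM-403 replicate 1); it was 594 without NM-403 replicate 2, 551 without NM-403 replicate 5 and 613 without vehicle replicate 2. Against Mitsui-7 the 498 genes became 331 without a slide term, 132 with only those groups, 297 with the authors' values (9803 genes tested) and 1679 with array weights, and 312 (without NM-403 replicate 1) to 623 with 1 replicate left out; without NM-403 replicate 3 it was 320. Adding the replicate block gave 670 and 452 genes. The interaction gave 0 calls under every alternative run. Sign changed for Cdkn1a (0.02 with the array median, 0.05 with the mean of a gene's probes; -0.10 to 0.02 with 1 left out), and with normexp for Uhrf1 (-0.03), Fancd2 (-0.03) and Cenpe (-0.01), which were below background on all vehicle arrays. Causes were not tested. Fold changes of genes with few vehicle arrays above background depend on the background correction, as normexp shows.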
